A study of Mus musculus with 32 samples.

Results

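The 10 genes described here handle iron and heme: *Hamp*, *Hamp2*, *Hmox1*, *Blvrb*, *Slc40a1*, *Slc11a1*, *Slc11a2*, *Tfrc*, *Tfr2* and *Fth1*. They were taken by gene name from the 34821 names on an Agilent mouse array, on which all 10 were found with 14 probes, and followed across the 8 sample groups of a study of colorectal cancer metastasis in the liver. Young adult male Balb/c mice had C26 colorectal carcinoma cells injected into the spleen, from where the cells seed the liver, and control mice had saline injected. Endothelial, Ito and Kupffer cells were isolated from the livers of control mice (control) and of mice with metastases (tumor microenvironment, TME), and were cultured for up to a day. The last groups were samples of the primary CRC tumor (TP) and of the liver metastasis (TM). Each group had 4 samples, stated by the paper to be biological replicates, on 16 arrays that carried 2 samples each. Cy3 always labelled control and TM samples and Cy5 their TME and TP partners on the same array. Dye can therefore not be told apart from TME against control, nor from TP against TM.

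Iron enters most cells bound to transferrin through the transferrin receptor encoded by *Tfrc*, and leaves the endosome through the divalent metal transporter encoded by *Slc11a2*. Macrophages, among them the Kupffer cells of the liver sinusoids, also take up senescent red cells. They open the heme ring with heme oxygenase 1 (*Hmox1*), reduce the resulting biliverdin with reductases, of which *Blvrb* encodes one, move iron out of the phagosome with *Slc11a1*, and either store it in ferritin, whose heavy chain is encoded by *Fth1*, or export it through ferroportin, encoded by *Slc40a1*. Hepcidin, encoded by *Hamp* and made mainly by hepatocytes, binds ferroportin and causes its degradation. *Tfr2* encodes a second transferrin receptor, an iron sensor of hepatocytes and of red cell precursors. *Hamp2* is a mouse copy of *Hamp*.

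The pair of hepcidin genes lies side by side on chromosome 7. Their probe sequences are given because the arrays could only tell them apart where these sequences differ, and their promoter sequences for comparison. The probes span chr7:31727490-31727549 for *Hamp* and chr7:31707520-31707579 for *Hamp2* in mm9, both on the minus strand. Their coding stretches up to the stop codon, with the bases that differ in capitals, are:
Hamp: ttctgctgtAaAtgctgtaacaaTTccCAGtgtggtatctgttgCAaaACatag
Hamp2: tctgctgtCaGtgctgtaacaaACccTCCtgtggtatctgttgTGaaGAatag
Without gaps, 42 of 53 aligned bases matched (79.2%). RefSeq promoters were matched for 7 members, and the 250 bases before the start of both hepcidin genes are shown on GRCm38.p6, chr7:30944030-30944279 for *Hamp* and chr7:30924182-30924431 for *Hamp2*, both on the minus strand. The capitals mark TTCTTGGAA, the letters of the STAT3 site known in the *Hamp* promoter, and GGCGCC, the letters of its known BMP-responsive element. They also mark GGCACC, which *Hamp2* has in the place of GGCGCC and again near its start.
Hamp promoter: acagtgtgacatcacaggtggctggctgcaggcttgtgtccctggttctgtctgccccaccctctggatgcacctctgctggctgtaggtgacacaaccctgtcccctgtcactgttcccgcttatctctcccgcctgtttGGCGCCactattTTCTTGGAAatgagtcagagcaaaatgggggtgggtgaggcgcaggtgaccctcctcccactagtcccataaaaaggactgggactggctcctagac
Hamp2 promoter: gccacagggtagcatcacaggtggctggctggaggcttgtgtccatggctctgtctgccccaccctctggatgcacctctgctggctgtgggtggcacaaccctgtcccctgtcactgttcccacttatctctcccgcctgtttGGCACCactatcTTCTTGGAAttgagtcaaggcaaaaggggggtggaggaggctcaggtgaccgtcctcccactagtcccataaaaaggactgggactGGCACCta
TTCTTGGAA was found in both promoters and in 0.365% of the same 250-base windows of all 32851 promoters, searched on both strands. GGCGCC was found in the *Hamp* window and in 9.59% of all windows, and GGCACC in the *Hamp2* window and in 12.9%. Among the 7 members, *Tfrc* also had GGCGCC and *Fth1* also had GGCACC. These matches describe letters, not binding.

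Levels are the log2 of the deposited intensities, which the authors had quantile normalized. A spot is called well above background where the scanner program says so, and differences were tested with limma over all 55681 probes with Benjamini-Hochberg adjustment. A difference is called at an adjusted p under 0.05. In 2 of the arrays the difference between TME and control ran against that of the other arrays of the same cells. Over 17050 probes, the difference on array 4 correlated with the mean of arrays 1 to 3 at r = -0.66 in Ito cells and at r = -0.60 in Kupffer cells, whereas each endothelial array correlated with the mean of the others at 0.51 to 0.78. The 4 tumor arrays gave -0.20, 0.64, 0.63 and -0.06 in the same way. Values with and without both arrays are therefore given where they differ. The cell labels were checked against marker genes. Of 10 stellate cell markers, 0 were higher and 2 were lower in control Ito than in control endothelial cells. Of these markers, 9 were well above background in all 4 control Ito samples, 9 in all 4 control endothelial samples and 7 in all 4 TME Ito samples. *Lrat*, which defines stellate cells, was well above background on 2 of 4 control and 0 of 4 TME Ito arrays. Of the other markers, 7 of 10 for hepatocytes, 4 of 9 for red cells and 4 of 10 for macrophages were higher in control Ito than in control endothelial cells. The study had checked the purity of its fractions by immunochemistry, with ASMA protein for Ito cells, which was not analysed here. At the RNA level these marker differences from endothelial cells do not bear out the label of the Ito samples. The Ito samples are called the Ito fraction below. In control Kupffer cells, 6 of 10 macrophage markers were higher and 0 lower than in control endothelial cells. Against the control Ito fraction only 1 of 10 was higher and 0 were lower, so these markers hardly separate Kupffer cells from the Ito fraction. Kupffer and tumor samples shared one slide and endothelial and Ito samples another, so that slide and cell type cannot be told apart where Kupffer cells are compared with the other liver cells.

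**Figure D1:**
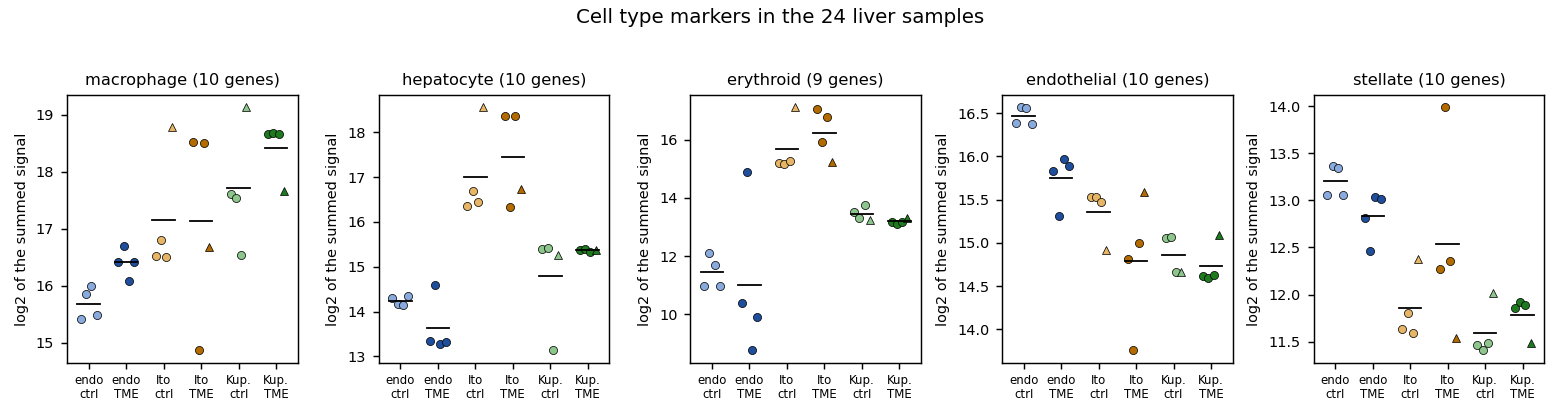
Log2 of the summed signal of 5 sets of marker genes in the 24 liver samples, with a point per sample, a line at the group mean and triangles for array 4 of the Ito and Kupffer cells. Hepatocyte sums of the control Ito samples lay between 16.36 and 18.55, above the 14.15 to 14.34 of the control endothelial samples, and stellate sums between 11.59 and 12.37, below 13.06 to 13.36.

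In control livers, most of the 10 genes were higher in the Ito fraction than in endothelial cells. Of the 10 genes, 8 were called higher and 0 lower, against 9.89% of all probes called, and the median difference was 1.71 against 0.01 over all probes. *Hmox1*, *Slc40a1*, *Tfr2* and *Hamp2* differed by more than 8-fold. For *Tfr2* and *Hamp2*, only 3 and 1 of 4 control endothelial samples were well above background. *Hamp* and *Tfrc* were the genes not called. In bulk samples, more cells of a type and more RNA per cell cannot be told apart, and the summed red cell markers (15.18 to 17.10 against 10.97 to 12.12) and macrophage markers (16.51 to 18.79 against 15.41 to 16.00) moved with these genes together with those of hepatocytes. Their part in the result was not tested. Under TME, 5 of the 10 genes were called higher in the Ito fraction than in endothelial cells and 0 lower, against 8.26% of all probes. Of these calls, those of *Slc40a1* and *Slc11a1* were lost without replicate 1 (adjusted p = 0.158 and 0.228) or 3 (0.214 and 0.307), and that of *Slc40a1* also without replicate 4 (0.0836) or array 4 (0.0514). In control samples *Slc11a1* (adjusted p = 0.0134) was not called without replicate 1 or 3 (0.0764 and 0.0822).

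Among the enzymes of heme breakdown, *Hmox1* had its highest levels in the Ito fraction. The probe with the higher variance (chr8:77620797-77620856) gave 11.05, 10.86, 10.89 and 11.07 in control endothelial cells and 14.48, 14.27, 14.21 and 14.02 in the control Ito fraction. The groups were far apart, with a difference of 3.28 ± 0.28 (SE), or 9.68-fold (limma, adjusted p = 2.28e-08). Control Kupffer cells gave 11.82, 11.68, 11.06 and 12.73, between the other fractions, and overlapped with endothelial cells in replicate 3. They were 2.42 ± 0.28 lower than the Ito fraction, a 5.35-fold difference (limma, adjusted p = 1.56e-06). Against endothelial cells Kupffer cells were 0.86 ± 0.28 higher (limma, adjusted p = 0.0288), a call that was lost without array 4 (0.55, adjusted p = 0.0712), without replicate 1 or 2 (0.12 and 0.11), but without array 4 not by the other *Hmox1* probe (chr8:77624207-77624266; 0.71, adjusted p = 0.0184). That probe differed by 3.23 between control Ito fraction and endothelial cells. *Blvrb* followed the same order, with 14.78, 14.71, 14.64 and 14.45 in the control Ito fraction, 13.46, 13.45, 13.74 and 14.16 in control Kupffer cells and 13.29, 12.20, 12.13 and 13.32 in control endothelial cells. These groups did not overlap. The Ito fraction was 1.91 ± 0.30 above endothelial cells (limma, adjusted p = 7.63e-05) and Kupffer cells 0.94 ± 0.30 below the Ito fraction (limma, adjusted p = 0.0307), a call that was lost without replicate 1, 2 or 3 (adjusted p = 0.213, 0.0686 and 0.125). *Blvrb* was also called higher in control Kupffer than in control endothelial cells, though not without replicate 3 (0.2).

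Iron export and storage showed the same order only in part. *Slc40a1*, for ferroportin (chr1:45965255-45965314), stood at 13.91, 13.82, 13.72 and 14.24 in the control Ito fraction, at 11.71, 11.62, 11.76 and 12.35 in control Kupffer cells and at 10.82, 10.68, 10.68 and 10.76 in control endothelial cells. The 3 fractions did not overlap. The Ito fraction was 3.19 ± 0.74 above endothelial cells, or 9.12-fold (limma, adjusted p = 0.00487, and 0.0556 without replicate 3). Kupffer cells were 2.06 ± 0.74 below the Ito fraction, which was not called (limma, adjusted p = 0.0608) but was called with background correction by normexp (adjusted p = 0.00264), and lay 1.13 ± 0.74 above endothelial cells (limma, adjusted p = 0.336). Whether the latter difference was called depended on the alternative, with adjusted p from 0.00306 to 0.529 (limma or the methods' t-test). The SE is shared over all 8 groups, and the SD of *Slc40a1* ranged from 0.07 in control endothelial cells to 1.85 in TM. *Fth1*, the ferritin heavy chain (chr19:10059485-10059544), had nearly the same level in Ito and Kupffer control samples, whose means were 18.05 ± 0.17 and 18.06 ± 0.44 (SD, n = 4), and a lower mean of 16.82 ± 0.54 in control endothelial cells. The difference of 1.24 to the Ito fraction and that of 1.24 to Kupffer cells had an SE of 0.20 each (limma, adjusted p = 0.000158 and 5.38e-05). The call against Kupffer cells did not hold in all alternatives, with an adjusted p of up to 0.0606 (limma or the methods' t-test). *Fth1* had the highest levels of the members, and whether the top of the normalized scale limits its differences was not tested.

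Of the importers, *Slc11a1*, the phagosomal metal transporter of macrophages (chr1:74432161-74432220), was highest in Kupffer cells. It was at 14.90, 14.67, 15.17 and 15.86 in control Kupffer cells, at 13.30, 13.22, 13.28 and 14.60 in the control Ito fraction and at 12.09, 12.09, 12.14 and 11.98 in control endothelial cells. No sample of one fraction reached the next. Kupffer cells exceeded the Ito fraction by 1.55 ± 0.40 (limma, adjusted p = 0.00805, and 0.075 and 0.1 without replicate 1 or 3) and endothelial cells by 3.07 ± 0.40, or 8.42-fold (limma, adjusted p = 2.59e-06). It was the only member called higher in control Kupffer cells than in the control Ito fraction, where 1 gene was higher and 2 were lower against 14.8% of all probes. *Slc11a2* varied little, with group means between 7.62 and 8.53 in the liver cells, and lay 0.91 ± 0.20 above control endothelial cells in the control Ito fraction (limma, adjusted p = 0.00323, and 0.079 without replicate 1). Its second probe was also lower in control Kupffer cells than in the control Ito fraction (-0.71, limma, adjusted p = 0.0359). *Tfrc* was called in none of the comparisons between liver fractions. Its 3 probes gave differences between control Ito fraction and control endothelial cells of -0.06, 0.30 and 0.16, each smaller than its SE. Against endothelial cells, 5 members were higher and 1 lower in control Kupffer cells, against 21% of all probes. Without array 4, 3 were higher and 0 lower.

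The hormone and its sensor did not follow one another. *Hamp* was highest in control endothelial cells, at 9.84, 8.98, 8.58 and 9.82, lower in the control Ito fraction, at 7.89, 8.57, 7.59 and 5.11, and lowest in control Kupffer cells, at 7.33, 6.88, 5.67 and 5.41. Endothelial cells lay above both other fractions in all samples, although the lowest endothelial value (8.58) and the highest of the Ito fraction (8.57) nearly met. The difference of -2.98 ± 0.98 in Kupffer cells was called (limma, adjusted p = 0.0287), though not without array 4 (-2.68, adjusted p = 0.0636) or without replicate 1, 3 or 4 (0.115, 0.0846 and 0.164), and that of -2.01 ± 0.98 in the Ito fraction was not (limma, adjusted p = 0.24). The hepatocyte marker sums ran the other way, with higher sums in every control Ito sample than in every control endothelial sample. *Hamp2* had the opposite order to *Hamp* between these fractions. It gave 3.72, 3.12, 2.19 and 3.28 in control endothelial cells, where 1 of 4 spots was well above background, and 6.44, 6.92, 6.43 and 4.84 in the control Ito fraction, where all 4 were. The fitted difference was 3.08 ± 0.76 (limma, adjusted p = 0.00857), but its size rests on endothelial spots near background. It fell to 0.87 with the normexp corrections, and the call was lost without replicate 1, 2 or 3 (adjusted p = 0.0798, 0.0501 and 0.0689). *Tfr2* (chr5:138028646-138028705) gave 9.68, 9.72, 9.73 and 10.45 in the control Ito fraction, 9.07, 8.97, 5.79 and 8.35 in control Kupffer cells and 6.44, 6.02, 2.17 and 6.43 in control endothelial cells. The value of 2.17 was not well above background, nor was that of the TME sample on the same array, at 2.22. The fitted difference between the Ito fraction and endothelial cells was 4.63 ± 0.78 (limma, adjusted p = 0.000195). It was 3.66 without replicate 3 and 3.08 with normexp, loess and Aquantile, and was called in both. Kupffer cells were 2.78 ± 0.78 higher (limma, adjusted p = 0.0102), a call that was lost without replicate 1 or 2 (adjusted p = 0.0683 and 0.0691), and 2.50 higher without replicate 3. Over all alternatives the adjusted p of this difference reached 0.212 (limma or the methods' t-test).

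**Figure D2:**
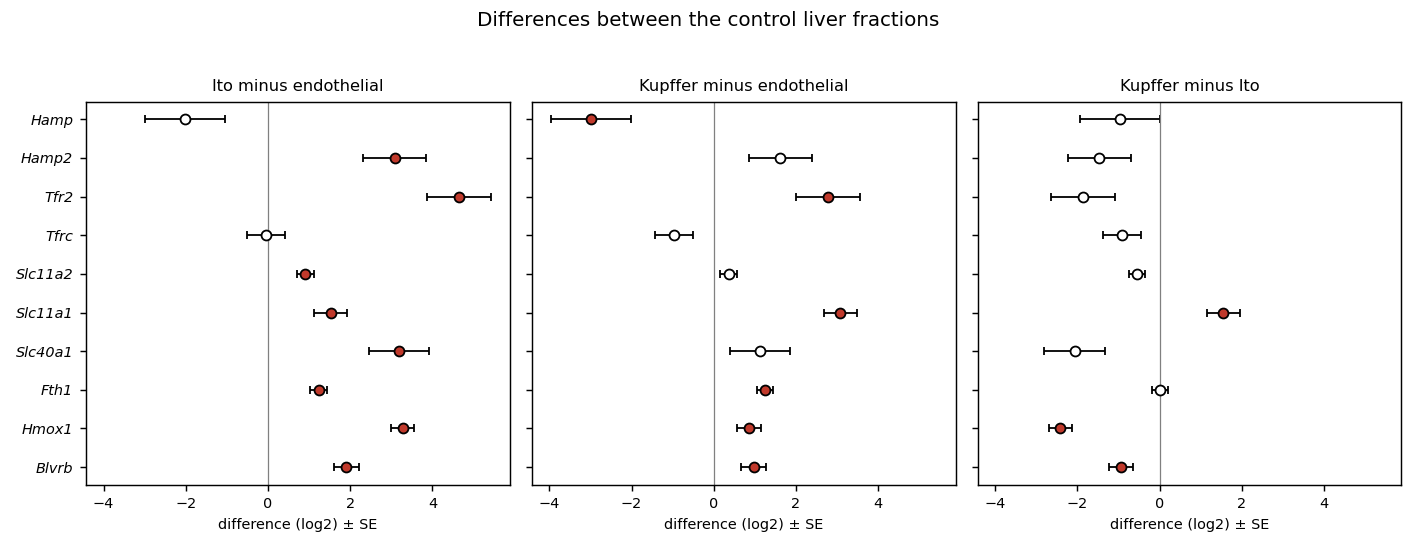
Difference between control liver fractions for the 10 genes on the log2 scale, with bars of 1 SE of the limma fit and filled points for an adjusted p under 0.05 over all probes. *Hmox1* and *Slc40a1* lay 3.28 and 3.19 higher in the Ito fraction than in endothelial cells, *Tfr2* and *Hamp2* were higher against endothelial samples of which 3 and 1 of 4 were well above background, *Slc11a1* was highest in Kupffer cells, and *Hamp* lay below zero in all 3 panels.

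The order of the 8 groups was tested between neighbours with 70 two-sided exact permutation tests, 7 for each gene, in which 4 against 4 samples cannot give a p below 0.0286. This smallest value was reached by 13 pairs and none passed after Benjamini-Hochberg adjustment over the 70 tests. With this floor, pairs could pass only if far more of them had reached it, so the adjusted result decides nothing. The neighbours were also set by the means of the same values, and the same count over all probes was not made. For *Hmox1* the order ran from the control Ito fraction (14.24) over the TME Ito fraction (13.95), TME Kupffer (12.52), control Kupffer (11.82), TME endothelial (11.48) and control endothelial cells (10.97) to TM (9.12) and TP (9.11). The neighbours in this order did not overlap at the step from the Ito fraction to Kupffer cells, between both endothelial groups, and between endothelial cells and TM (exact permutation test, p = 0.0286 each, n = 4). For *Slc40a1* only the step from control endothelial cells (10.73) to TP (3.75) reached that value. *Slc11a1* had 4 such pairs, *Blvrb*, *Fth1*, *Hamp*, *Slc11a2* and *Tfr2* had 1 each, and *Tfrc* and *Hamp2* had 0.

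**Figure D3:**
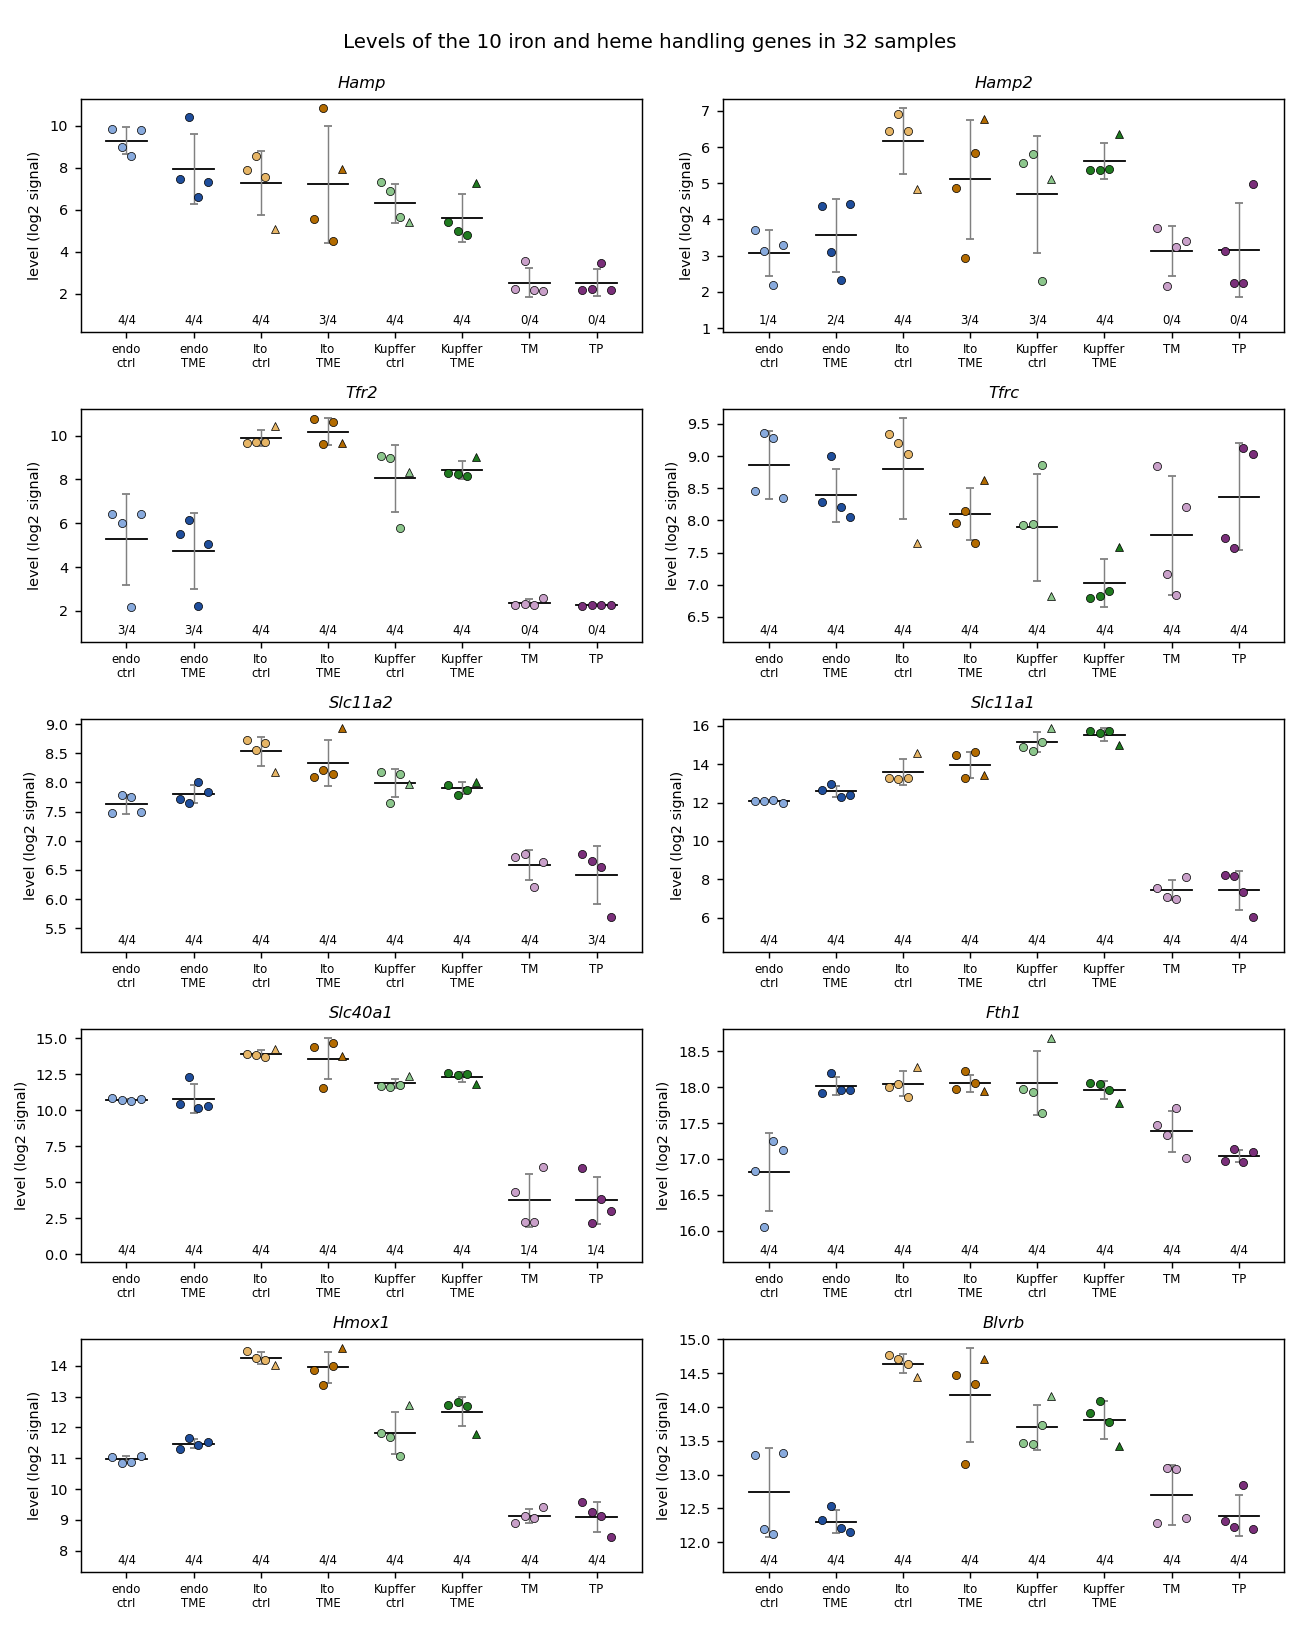
Levels of the 10 genes on the log2 scale in all 32 samples by group, with points for samples in the order of their replicate number, lines at the mean and bars of 1 SD, triangles for array 4 of the Ito and Kupffer cells and, under each group, the number of samples well above background. *Hmox1*, *Slc40a1*, *Tfr2* and *Blvrb* were highest in the Ito fraction, *Slc11a1* in Kupffer cells and *Hamp* in control endothelial cells, and *Slc40a1*, *Tfr2* and *Hamp* stood near the lower end of the scale in TM and TP.

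The comparison of TME with control asks which genes change in liver cells beside a metastasis. In endothelial cells *Fth1* rose and no other member was called, 1 of 10 against 1.14% of all probes. Control endothelial cells gave 16.83, 16.05, 17.25 and 17.13 and TME endothelial cells 17.93, 18.20, 17.96 and 17.96. The groups did not overlap, TME was higher on 4 of 4 arrays, and the difference was 1.20 ± 0.20, or 2.29-fold (limma, adjusted p = 0.00131). Leaving out replicate 1 or replicate 2 ended the call (adjusted p = 0.0822 and 0.0605, limma). It was also lost elsewhere, as the adjusted p reached 0.085 over all alternatives in processing and testing (limma or the methods' t-test). Macrophage marker sums were also higher in every TME than in every control endothelial sample (16.09 to 16.70 against 15.41 to 16.00) and endothelial marker sums lower (15.31 to 15.97 against 16.38 to 16.57), and their part in the *Fth1* result was not tested. The change of *Fth1* was smaller in the Ito fraction by 1.19 ± 0.29 (limma, adjusted p = 0.135) and in Kupffer cells by 1.29 ± 0.29 (limma, adjusted p = 0.0983), so that a difference between cell types was not called for any member, against 0.111% and 0.0808% of all probes. With normexp and quantile normalization both differences of *Fth1* were called (adjusted p = 0.035 and 0.00933). *Fth1* had the highest levels of the members. Its quantile normalized value of 17.96 was identical in TME endothelial replicates 3 and 4 and TME Kupffer replicate 3. Whether the top of this scale limits the differences of *Fth1* was not tested.

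*Hmox1* and *Slc11a1* were higher in TME on all 4 endothelial arrays and their groups did not overlap, but neither was called. How many of all probes did the same was not counted. *Hmox1* went from 11.05, 10.86, 10.89 and 11.07 to 11.30, 11.66, 11.42 and 11.53, by 0.51 ± 0.28 (limma, adjusted p = 0.794), and was called where the fit held only these groups (adjusted p = 0.0291). *Hamp* was at 7.45, 10.40, 6.62 and 7.32 in TME endothelial cells against 9.84, 8.98, 8.58 and 9.82, lower on 3 of 4 arrays and higher on array 2 (difference -1.36 ± 0.98, limma, adjusted p = 1). The hepatocyte marker sum moved with it in these cells, from 14.15 to 14.34 in control to 13.28 to 13.34 in TME replicates 1, 3 and 4 and 14.60 in replicate 2, and its part in the result was not tested. Over all 24 liver samples, *Hamp* and the hepatocyte marker sum correlated at Pearson r = -0.29. TME endothelial replicate 2 also stood apart for *Slc40a1*, at 12.28 beside 10.47, 10.18 and 10.32, and in its red cell marker sum, at 14.89 beside 8.77 to 10.40. *Tfrc* was lower on 4 of 4 arrays by its most variable probe and on 1 and 2 of 4 by the others.

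In the Ito fraction 0 members were called between TME and control, against 0.289% of all probes, and 0 had an unadjusted p under 0.05. *Hmox1* was at 13.86, 13.38, 13.98 and 14.57 in TME against 14.48, 14.27, 14.21 and 14.02 in control, lower on arrays 1 to 3 and higher on array 4. Without array 4 the difference was -0.58 ± 0.23 (limma, adjusted p = 0.135), and -0.74 ± 0.23 by the other probe (adjusted p = 0.0476, limma), while 7.66% of all probes were called. The second probe of *Slc11a2* (chr15:100218333-100218392) then fell too (-0.74, adjusted p = 0.0204), although the first did not (-0.51, adjusted p = 0.155). *Tfrc* was at 7.97, 8.15, 7.65 and 8.62 in TME and at 9.34, 9.21, 9.03 and 7.64 in control, with all samples of arrays 1 to 3 apart (-1.27 ± 0.46 without array 4, limma, adjusted p = 0.101). *Hamp* ranged from 4.52 to 10.84 within the TME Ito fraction, the widest range of any member in any group of liver cells. Its highest value was replicate 2, which also had the lowest *Slc40a1* (11.54), the lowest macrophage marker sum (14.86 beside 16.67 to 18.53) and the highest stellate marker sum (13.98 beside 11.54 to 12.36) of its group. Replicate 2 also had the lowest hepatocyte marker sum of the group (16.32 beside 16.73 to 18.37).

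In Kupffer cells 0 members were called, against 0.436% of all probes, and *Hmox1* had an unadjusted p under 0.05. TME samples gave 12.74, 12.84, 12.70 and 11.80 and control samples 11.82, 11.68, 11.06 and 12.73. On arrays 1 to 3 TME was higher by 0.92, 1.15 and 1.63, and on array 4 it was lower by the difference of -0.93. Over all arrays the difference was 0.69 ± 0.28 (limma, adjusted p = 0.546). Without array 4, which was left out after the data were seen, it was 1.24 ± 0.23, or 2.35-fold (limma, adjusted p = 0.00319), and 1.12 ± 0.23 by the other probe (adjusted p = 0.00652, limma), the only member called, against 3.85% of all probes. The macrophage marker sums moved with it, from 17.61, 17.54 and 16.55 in control to 18.66, 18.68 and 18.67 in TME on arrays 1 to 3 and from 19.13 to 17.67 on array 4, and their part in the result was not tested. *Slc40a1* and *Slc11a1* were likewise higher in TME on arrays 1 to 3 (0.73 to 0.85 and 0.55 to 0.94) and lower on array 4, and neither was called with or without it. *Tfrc* ran the other way, from 7.92, 7.95, 8.86 and 6.82 to 6.79, 6.83, 6.90 and 7.59, by -0.86 ± 0.46 over all arrays and -1.41 ± 0.46 without array 4 (limma, adjusted p = 0.726 and 0.0954).

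The TME change of *Hmox1* had opposite signs in Kupffer cells and in the Ito fraction on arrays 1 to 3. Over all arrays the difference between both changes was 0.99 ± 0.40 (limma, adjusted p = 0.995, with 0.00359% of all probes called). Without array 4 of both cell types it was 1.81 ± 0.32 (limma, adjusted p = 0.0172, with 0.183% called), and 1.85 by the other probe (limma, adjusted p = 0.013). Between the Ito fraction and endothelial cells, the difference of the changes without array 4 was -1.08 ± 0.30 (limma, adjusted p = 0.0724, with 1.67% of all probes called) and -1.26 by the other probe (limma, adjusted p = 0.0297).

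**Figure D4:**
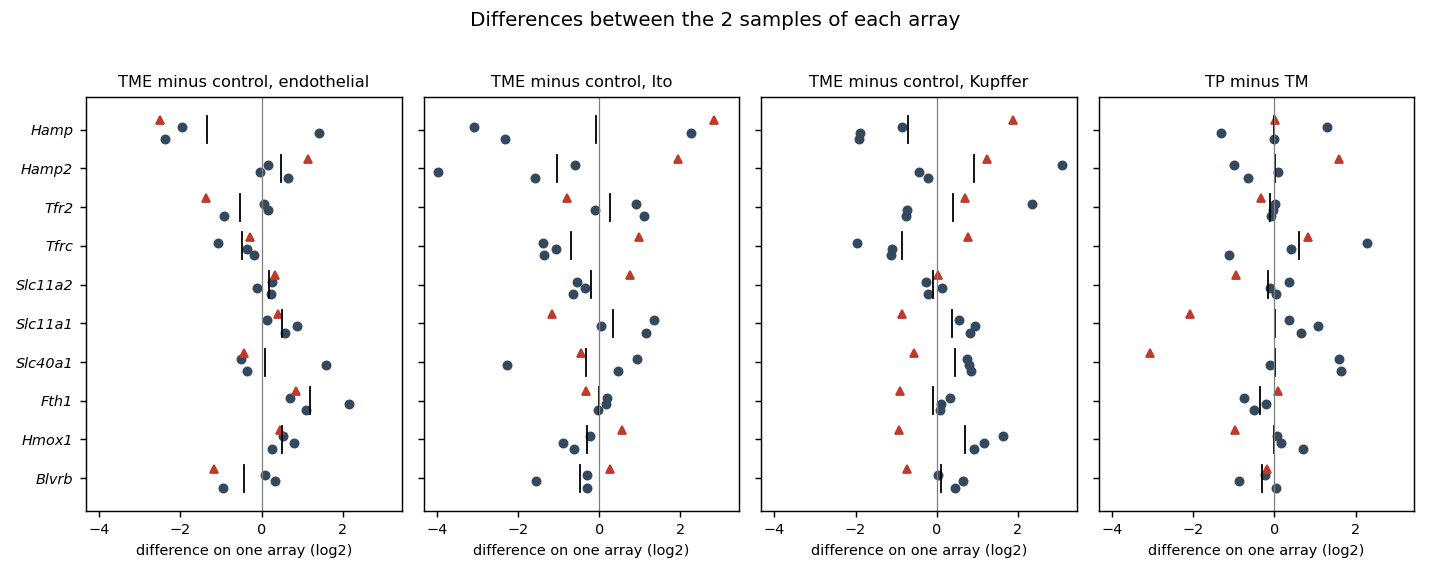
Difference between the pair of samples on each array, TME minus control or TP minus TM on the log2 scale, for the 10 genes, with a point per array, red triangles for array 4 and lines at the mean. *Fth1* and *Hmox1* lay above zero on all 4 endothelial arrays, and in Kupffer cells *Hmox1* lay between 0.92 and 1.63 on arrays 1 to 3 and at -0.93 on array 4.

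Most members were lower in tumor samples than in Kupffer cells. TM was compared with control Kupffer cells, and TP with TME Kupffer cells, which lay on the same slide and carried the same dye. In TM 8 of 10 genes were called lower and 0 higher than in control Kupffer cells, against 39.4% of all probes, and in TP 9 were lower and 1 higher than in TME Kupffer cells, against 43.6%. Macrophage marker sums were between 7.92 and 10.30 in TM and 16.55 and 19.13 in control Kupffer cells, and in each tumor group 7 of 10 hepatocyte markers were not well above background in any sample. Their part in these results was not tested. *Slc40a1* was at 4.35, 2.28, 2.23 and 6.09 in TM and at 5.99, 2.18, 3.82 and 3.03 in TP, with 1 of 4 samples of each group well above background. It was lower than in Kupffer cells in both (limma, adjusted p = 5.13e-10 and 1.61e-10), but with most tumor spots not above background the size is uncertain. The fitted differences were -8.12 and -8.57, and -5.31 and -5.78 with normexp, loess and Aquantile. *Slc11a1* was well above background in all tumor samples, at 7.57, 7.07, 7.0 and 8.12 in TM and at 8.23, 8.15, 7.36 and 6.03 in TP. Its differences from Kupffer cells, -7.71 ± 0.40 and -8.07 ± 0.40, had the smallest adjusted p of the members (limma, 8.82e-15 and 3.22e-15).

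*Tfr2*, *Hamp* and *Hamp2* were not well above background in any tumor sample, so that only bounds can be given, from values corrected by normexp, loess and Aquantile against the lowest signal above background. *Tfr2* was at least 4.45-fold lower in TM than in control Kupffer cells and at least 4.22-fold lower in TP than in TME Kupffer cells (limma, adjusted p = 7.32e-07 and 1.64e-07). *Hamp* was at least 1.91-fold and at least 1.36-fold lower (limma, adjusted p = 0.00232 and 0.0109), calls that were lost with the normexp corrections (adjusted p = 0.169 to 0.321), without replicate 1 (0.0504 and 0.0672) and, for TP, without replicate 4 (0.117). *Hamp2* was at least 1.29-fold lower in TP than in TME Kupffer cells (limma, adjusted p = 0.0094), a call that was lost without replicate 1 (0.0545), and was not called in TM (limma, adjusted p = 0.116). *Hmox1* was expressed in tumor samples at 8.89, 9.12, 9.05 and 9.42 in TM and 9.59, 9.27, 9.12 and 8.44 in TP. It was lower than in every liver sample, by differences of -2.71 ± 0.28 and -3.41 ± 0.28 to the Kupffer groups (limma, adjusted p = 5.99e-09 and 6.55e-11).

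*Fth1*, *Blvrb* and *Slc11a2* differed less, and *Blvrb* in TM was not called without replicate 1 or 4 (adjusted p = 0.0598 and 0.0932, against 0.00741 with all). *Fth1* was at 17.48, 17.34, 17.71 and 17.01 in TM and at 16.97, 17.14, 16.96 and 17.09 in TP. Its differences of -0.68 ± 0.20 and -0.92 ± 0.20 were called (limma, adjusted p = 0.00852 and 0.000454), but the first turned to 0.21 when arrays were scaled to their 75th percentile (adjusted p = 0.407), a scaling that moved the median of all probes in this comparison to 0.50. TM and control Kupffer cells overlapped for *Fth1*, and the call was lost without replicate 1 or 4 (adjusted p = 0.0519 and 0.225) and without array 4 (0.0696). The difference of *Fth1* in TP ranged from -1.25 to -0.34 over all alternatives. Its call did not hold in all of them, with an adjusted p of up to 0.157 (limma or the methods' t-test). *Tfrc*, which brings iron into dividing cells, was the one member called higher in tumor samples. It was at 7.73, 7.57, 9.13 and 9.04 in TP against 6.79, 6.83, 6.90 and 7.59 in TME Kupffer cells, a difference of 1.34 ± 0.46 that overlapped in replicate 2 of TP and replicate 4 of the Kupffer cells (limma, adjusted p = 0.0196, and 0.128 without replicate 3). Its second probe gave 1.39 (adjusted p = 0.0135, limma) and the remaining probe 0.52 (adjusted p = 0.326, limma). TM, at 8.85, 7.17, 6.84 and 8.21, was not called against control Kupffer cells (-0.12 ± 0.46, limma, adjusted p = 0.892). Between TP and TM 0 members were called, against 3.01% of all probes, and 0 had an unadjusted p under 0.05 by the most variable probe. *Tfrc* differed most, by 0.60 ± 0.46, and its second probe by 1.10 ± 0.45 (limma, adjusted p = 0.206).

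**Figure D5:**
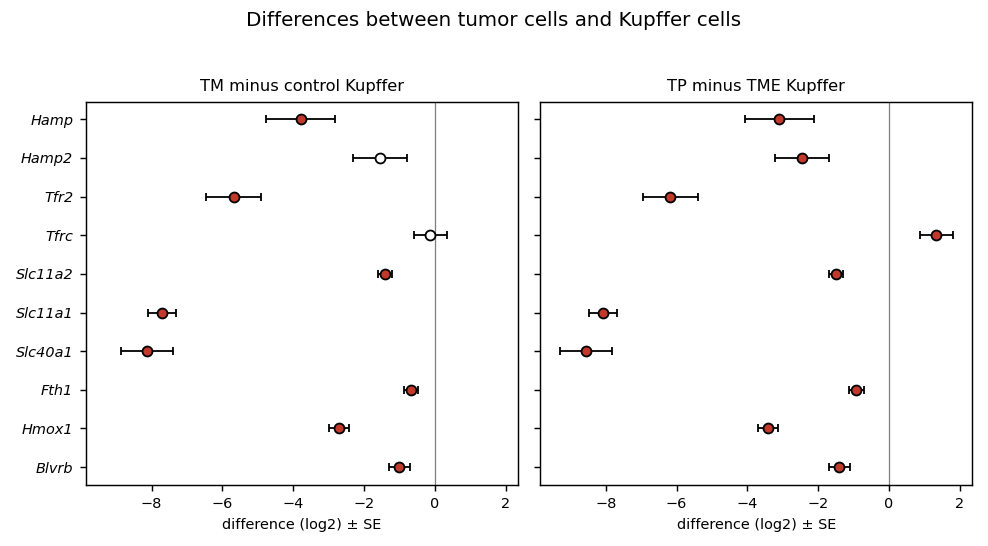
Differences between tumor samples and the Kupffer cells of the same slide and dye on the log2 scale, with bars of 1 SE and filled points for an adjusted p under 0.05 over all probes. *Slc11a1* lay at -7.71 and -8.07, and *Tfrc* lay at -0.12 in TM and at 1.34 in TP. The points of *Hamp*, *Hamp2* and *Tfr2* are fitted values of probes not well above background in any tumor sample, and those of *Slc40a1* of a probe well above background in 1 of 4 samples of each tumor group.

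Of 56 other genes of iron and heme handling listed, 53 were on the array. Between TME and control, 2 fell in endothelial cells and 0 rose, against 1.14% of all probes called: the ferric reductase gene *Steap4* by -1.11 ± 0.25 (limma, adjusted p = 0.0201) and the mitochondrial iron importer gene *Slc25a28*, mitoferrin 2, by -0.69 ± 0.16 (limma, adjusted p = 0.0289). None was called in the Ito fraction or in Kupffer cells. Without array 4, the heme binding hemopexin gene *Hpx* (2.73), *Slc46a1* (1.38), *Fech* (0.83) and *Steap3* (1.42) rose and *Bmp6* (-1.59), which drives hepcidin expression and is made by endothelial cells of the liver, fell in the Ito fraction, 5 of 53 genes against 7.66% of all probes. In Kupffer cells the light chain of ferritin *Ftl1* (1.14) and the heme transporter gene *Slc48a1* (0.89) rose, 2 of 53 against 3.85%. These genes, and those of the next paragraph, were named after their values were seen. Between TP and TM, *Lrp1* was called (-1.30, limma, adjusted p = 0.0335), but its probe was well above background in 1 of 8 tumor samples.

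Between the control fractions, 9 of the 53 genes were higher and 7 lower in the Ito fraction than in endothelial cells, against 9.89% of all probes called. The median difference of the 53 genes was 0.02. Without array 4, 7 were higher and 11 lower, against 11.7% of all probes. Only rises are named here, and the 7 lower genes are not. The largest rises, *Trf* for transferrin (3.29) and *Tmprss6* (2.82), are genes of hepatocytes, *Alas2* (2.56) is the heme synthesis enzyme of red cell precursors and *Spic* (2.60) a transcription factor of red pulp and liver macrophages. *Trf* and *Alas2* also stood in the hepatocyte and red cell marker lists, and were not called without array 4 (adjusted p = 0.125 and 0.0621). In tumor samples the 9 genes of heme synthesis moved in both directions, with 6 higher and 2 lower in each comparison, against 39.4% of all probes called in TM and 43.6% in TP. In TM against control Kupffer cells, *Cpox* (2.82) and *Fech* (1.36), which inserts the iron into the ring, were among those higher, *Alas1*, the first enzyme of the pathway, was lower (-1.59), and *Alas2* was at least 1.99-fold lower. In TP against TME Kupffer cells the values were 2.82 for *Cpox*, 1.49 for *Fech* and -1.97 for *Alas1*. Of 9 other genes of heme uptake, transport and breakdown, 7 were lower and *Slc48a1* was higher in each comparison (1.86 in TM and 0.85 in TP), against the same 39.4% and 43.6%. Of 10 markers of cycling cells, 9 were higher in TM and in TP than in the Kupffer groups.

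Over the 24 liver samples, the genes with the pattern most like that of *Slc40a1* among 27416 probes were *Prdx1* (Pearson r = 0.96), *Akr1b3* (0.95) and *Acot1* (0.93). Those most like *Hmox1* were *Cat*, for catalase (0.95), *Pgd* (0.94) and *Slc48a1* (0.93). *Eif5* (0.95), *Ipo5* (0.94) and *Ddx21* (0.93) were most like *Tfrc*, and *Myl4* (0.89), *Ccbl2* (0.88) and *Rgcc* (0.88) most like *Hamp*. The samples share groups, arrays and slides, and these values describe the pattern over groups. Among the members themselves, *Hmox1* and *Slc40a1* (0.90), *Blvrb* and *Slc40a1* (0.89) and *Blvrb* and *Hmox1* (0.84) were most alike, whereas *Hamp* and *Slc11a1* (-0.75) and *Slc11a1* and *Tfrc* (-0.74) ran against each other.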

How the data were processed

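RNA of 32 samples was hybridised to 16 dual-colour Agilent arrays, read with Feature Extraction 10.7.3.1 per the file headers. The authors deposited a table of quantile normalized intensities of 55681 probes, which followed the scanner files' processed signal in the channel of the sample. The log2 of these intensities was fitted with limma 3.58.1 in R 4.3.3 over all 8 groups with lmFit and eBayes, with Benjamini-Hochberg adjustment over all probes. Array precision is limited by the number of arrays. The limma p-values of the main fit set a group difference against the spread within groups, estimated over all 8 groups. The probe with the highest variance stood for a gene, and all probes of members were read. Bounds were taken from the scanner files. The calculation was tested on simulated data. Members, the 6 lists of 56 other iron and heme genes and the marker lists (hepatocyte, red cell, macrophage, endothelial, stellate, cycling) were chosen with earlier results of these data known. Of the other genes, up to 5 rises and 5 falls were to be named in each TME or TP against TM comparison. Likeness was ranked by Pearson correlation among probes well above background in at least 12 liver samples. Alternatives were scanner processed signals, normexp with offset 50, the 75th percentile, a filter on dim probes, a replicate block, fits of the compared groups alone, the methods' t-test, the mean of a gene's probes, each replicate left out, and the methods' threshold (adjusted p under 0.001 and 4-fold). Leaving out array 4 of the Ito and Kupffer cells was chosen after seeing the data. Promoters came from RefSeq on GRCm38.p6 and probe positions from the array files on mm9.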

Additional observations from a re-analysis of the deposited data

Results flagged for a closer look

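Of 74 sets of 4 samples, 10 had a sample far from the other 3 by Dixon's criterion, which chance alone meets in about 1 of 20. Of these, 7 were replicate 4 of Ito or Kupffer cells. In TME Kupffer replicate 4, *Hmox1* was 11.80 (others 12.70 to 12.84), *Slc11a1* 15.01 (15.61 to 15.72), *Hamp2* 6.35 (5.35 to 5.39) and *Tfrc* 7.59 (6.79 to 6.90). In control Ito replicate 4, *Slc11a1* was 14.60 (13.22 to 13.30) and *Tfr2* 10.45 (9.68 to 9.73), and in TME Ito replicate 4 *Slc11a2* was 8.93 (8.09 to 8.21). In TME endothelial replicate 2, *Fth1* was 18.20 (17.93 to 17.96) and *Slc40a1* 12.28 (10.18 to 10.47). *Tfr2* was 2.17 in control endothelial replicate 3 (6.02 to 6.44).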

How the results depend on the processing

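Counts are of the 10 genes called. For TME against control endothelial cells the count was 1, 2 in a fit of these groups alone, 0 at the methods' threshold and 0 to 1 when a replicate was left out, with 0 without replicate 1 or 2. For TME against control Kupffer cells it was 0, 1 without array 4 of the Ito and Kupffer cells, and 0 to 1 when a replicate was left out. Control Ito against endothelial cells gave 8, 2 at the methods' threshold and 5 to 8 with a replicate left out. TME Ito against TME endothelial cells gave 5, 3 in a fit of these groups alone, 3 by the methods' t-test, 2 at the methods' threshold and 3 to 5 with a replicate left out. Control Kupffer against endothelial cells gave 6, 3 by the methods' t-test, 3 without array 4, 1 at the methods' threshold and 3 to 5 with a replicate left out. Control Kupffer against control Ito cells gave 3, 6 with normexp and quantile, 6 with normexp, loess and Aquantile, 5 with the filter on dim probes, 1 at the methods' threshold and 1 to 4 with a replicate left out. TM against control Kupffer cells gave 8, 4 at the methods' threshold and 5 to 9 with a replicate left out, and TP against TME Kupffer cells 10, 4 and 8 to 10. The TME change differed for 0 genes between cell types, for 1 between Ito and endothelial cells with normexp and quantile, for 1 between Kupffer and endothelial cells with the scanner processed signal and 1 with normexp and quantile, and for 1 between Kupffer and Ito cells without array 4 and 0 to 1 with a replicate left out. *Fth1* in TM against control Kupffer cells turned from -0.68 to 0.21 with the 75th percentile. The array as a replicate block changed no call of a member, and the adjusted p of *Fth1* in endothelial cells was 0.031 with it. Same-numbered samples did not deviate together throughout (array correlation 0.0783). Causes were not tested. Genes near background, as *Hamp*, *Hamp2*, *Tfr2* and *Slc40a1* in tumor samples, are limited by signal over background.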
